A study of Homo sapiens with 9 samples.

Results

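The genes followed here encode the proteasome, the protease complex that degrades proteins tagged with ubiquitin, together with the chaperones that assemble it. Their transcripts were read by sequencing of poly(A) RNA in Caco-2 cells, an established line from a human colon adenocarcinoma that serves as a model for gut epithelium. Members were taken by symbol, as protein-coding genes named PSM followed by a letter from A to G and a number. Each gene was represented by the RefSeq transcript entry with its highest total count over the 9 libraries. The table held 48 such genes, and the 44 with at least 15 counts in total are described, of 27671 genes in all. They comprise 15 subunits of the proteolytic core, 17 subunits of the regulatory cap, 5 genes in the activator class (4 activators and 1 inhibitor) and 7 assembly chaperones. PSMG4, with 1158 counts, had the lowest total among the members kept. PSMB11, with 3 counts, had the highest total among the 4 left out, and PSMA8, PSMB8 and PSMB9 were listed at 0.

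Every library came from cells that received 10 µM lovastatin, a statin that blocks cholesterol synthesis, for 48 h in medium containing lipid-depleted serum. The 3 control libraries had lovastatin alone. Another 3 had lovastatin with 10 µM SGA360, and the last 3 had lovastatin with 10 µM SGA315, both ligands of the aryl hydrocarbon receptor (AHR). The controls therefore also carried the statin, and cells without lovastatin were not analysed here. Separate cultures for the 3 libraries of a group are not stated in the labels, so p-values reflect only how far these libraries spread, and that spread may be technical. Both comparisons with lovastatin alone used the same 3 control libraries.

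The core is a barrel of stacked rings: the alpha subunits (PSMA) form the gated outer rings, and the beta subunits (PSMB) form the inner rings and carry the active sites. The cap recognises ubiquitin chains, removes them and unfolds the protein through a ring of ATPases (PSMC) held by non-ATPase subunits (PSMD). Other activators (PSME) can open the core in place of the cap, and dedicated chaperones (PSMG for the core, PSMD5, PSMD9 and PSMD10 for the cap) guide assembly but leave the finished particle. Interferon can replace the constitutive catalytic beta subunits by PSMB8, PSMB9 and PSMB10. The transcription factor NFE2L1 is known for raising most proteasome genes together when proteasome capacity is short.

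Depth was 12343060 to 16882412 counts per library over 1 entry per gene, so that 3 counts, the upper limit for a gene counted 0 times, equal 0.174 to 0.236 CPM (counts on a common scale of TMM-scaled library sizes). All 44 members passed the filter on low counts that left 14680 genes for testing. All 7 epithelial marker genes examined had at least 15 counts in total, as did 2 of 4 of blood cells (PTPRC and CD14), 1 of 3 of fibroblasts (PDGFRB) and 2 of 3 of endothelium (PECAM1 and VWF). Of the epithelial genes, KRT20 had only 1 to 4 counts per library, near the floor of 3 counts. Summed blood-cell markers, nearly all CD14, were 7.28 to 9.49 CPM with lovastatin alone, 7.23 to 10.5 CPM with SGA360 and 4.84 to 6.25 CPM with SGA315, where CD14 was lower (−0.78, adjusted p = 6.12e-07). The fibroblast sums were 7.54 to 9.47, 7.88 to 8.38 and 5.82 to 7.56 CPM in the same order, and the endothelial sums 1.75 to 3.08, 1.68 to 2.52 and 2.496 to 3.08 CPM. The summed epithelial markers, mostly keratins KRT8 and KRT18, were 7053 to 7136 CPM with lovastatin alone, 5150 to 5569 CPM with SGA360 and 3710 to 3799 CPM with SGA315. CDX2, an intestinal transcription factor in that list, went the other way, from a mean of 75.9 CPM with lovastatin alone to 80.1 CPM with SGA360 (0.08, adjusted p = 0.0684) and 117 CPM with SGA315 (0.63, adjusted p = 4.35e-24). These markers moved with the treatment groups, and their part in the results below was not tested. In bulk RNA, fewer cells of a kind and less RNA per cell cannot be told apart.

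In cells with lovastatin alone, levels per kilobase of transcript spanned a wide range. The highest was PSMA7, an alpha-ring subunit, at 494.6 ± 7.78 CPM per kilobase (SD, n = 3), followed by the beta subunits PSMB4 at 228 ± 2.54 and PSMB3 at 204 ± 1.13. The lowest were PSMG4, a core chaperone, at 13.2 ± 0.489 and PSMB10 at 15.01 ± 0.816 CPM per kilobase. PSMB5 (154 ± 2.00) and PSMA3 (157 ± 4.54), neighbours in the order, did not differ beyond their spread. Class medians on this scale were 130 for the core, 75.9 for the cap, 53.9 for the activator class and 18.8 CPM per kilobase for the assembly chaperones. Among the assembly genes PSMG2 stood highest at 60.8 ± 0.188. PSMA4 and PSMC1 have no length here and are left out of this order. Transcript lengths are those of GENCODE 29, and the choice of entry moves such values: PSMA5, at 33.6 ± 0.681 the lowest of the alpha ring, is represented by an entry of 3729 bases.

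**Figure D1:**
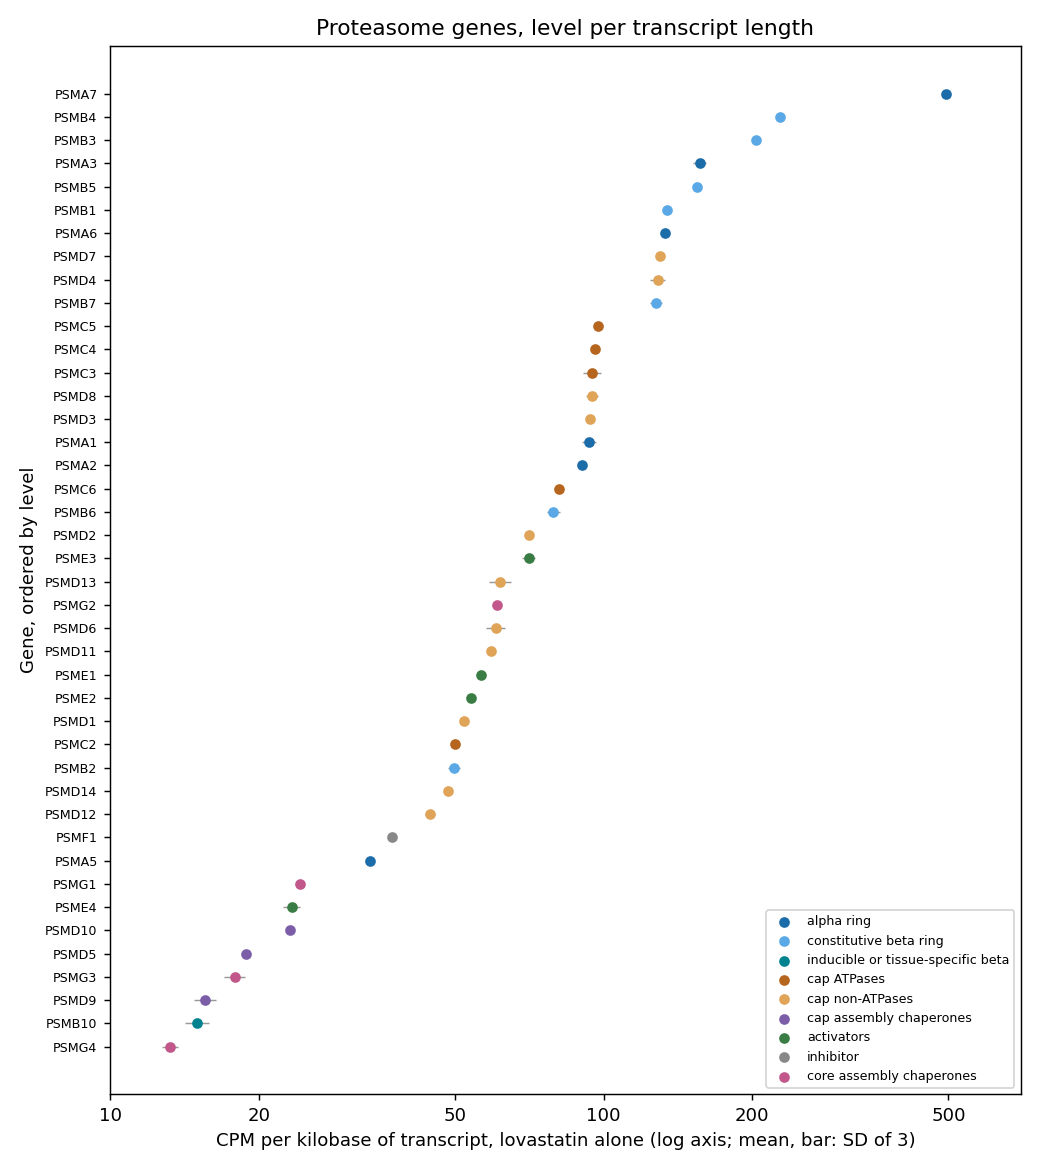
Level of 42 proteasome genes in cells with lovastatin alone, in CPM per kilobase of transcript on a log axis (points: mean of 3 libraries; bars: SD), coloured by class. PSMA7 stands at 494.6, most core and cap genes lie in the middle, and assembly chaperones and PSMB10 make up most of the lowest positions.

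With SGA360, core and cap genes fell together. Of the 44 members, 38 were lower and 1 was higher than with lovastatin alone at an adjusted p under 0.05 in edgeR's quasi-likelihood test, and 5 did not pass. Over all 14680 genes tested, 31.4% were called lower and 31.4% higher. The members' median log2 fold change was −0.31, beside 0.02 for all genes. At least 1.2-fold lower were 28 members, against 19.6% of all genes. In 38 members every SGA360 library lay below every control library in CPM, as in 32.9% of all genes. Scaling to library totals alone, without the trimmed-mean correction, raised the all-gene median from 0.02 to 0.14 and gave 31 members lower and 4 higher. The members' median lay 0.33 below that of all genes under both scalings. A change of scaling shifts all genes of a comparison nearly alike, so this distance could hardly change and is no check on the scaling.

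All 7 alpha-ring genes and all 7 constitutive beta-ring genes were lower with SGA360, with medians of −0.35 and −0.44. Under scaling to totals alone, 13 of these 14 stayed lower. PSMB3, a structural beta subunit, measured 158, 158 and 157 CPM with lovastatin alone and 106, 106 and 105 CPM with SGA360. Its libraries did not overlap, and its log2 fold change was −0.58 ± 0.035 (SE, adjusted p = 2.09e-23). PSMA7 measured 489.6, 501 and 487 CPM with lovastatin alone and 343, 348 and 344 CPM with SGA360, again without overlap (−0.51 ± 0.028, adjusted p = 7.28e-26). The 3 constitutive catalytic subunits also fell: PSMB5, the chymotrypsin-like site, by 0.44, PSMB7, the trypsin-like site, by 0.48, and PSMB6, the caspase-like site, by 0.27 on the log2 scale. The smallest change of a constitutive core gene was that of PSMA1, at −0.11 (adjusted p = 0.00675). This value became 0.01 (adjusted p = 0.858) when libraries were scaled to totals alone.

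Among the 17 cap genes all were lower with SGA360, 14 of them also under scaling to totals alone, where the other 3 did not pass. PSMD2, a large scaffold subunit that binds ubiquitin carriers, showed the largest fall of any member. It measured 241, 249 and 242 CPM with lovastatin alone and 158, 158 and 157 CPM with SGA360, a log2 fold change of −0.63 ± 0.031 (adjusted p = 7.17e-28). The gap between the groups was far wider than the spread within either. Its partner scaffold PSMD1 fell by 0.59 and PSMD11 by 0.51 on the log2 scale. The 6 ATPases had a median of −0.34 and ranged from −0.54 (PSMC1) to −0.31 (PSMC5). PSMD8 stood at the other end of the cap at −0.08 (adjusted p = 0.0382), a call that was lost without lovastatin replicate 2 (adjusted p = 0.0808) or 3 (0.0976), in DESeq2 (0.0514) and when SGA360 replicate 3 was left out (0.0986). It turned to 0.04 under scaling to totals alone.

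All 5 genes of the activator class were lower with SGA360, with a median of −0.29 over the class and over its 4 activators. PSME3, which forms a nuclear activator ring, fell by 0.29, PSME4, a large single-chain activator, by 0.30, and PSME2, part of the interferon-inducible activator, by 0.33 on the log2 scale. PSME1, the partner of PSME2, was at −0.11 (adjusted p = 0.0297) and PSMF1, an inhibitor of the core, at −0.07 (adjusted p = 0.0411). Both of these calls were lost in DESeq2, where the adjusted p was 0.0715 for PSME1 and 0.0508 for PSMF1, and both values turned positive under scaling to totals alone. That of PSME1 was also lost without lovastatin replicate 2 (adjusted p = 0.0577) or 3 (0.0513) and without SGA360 replicate 1 (0.0966) or 2 (0.0590). That of PSMF1 was lost without lovastatin replicate 2 (adjusted p = 0.135) and without SGA360 replicate 3 (0.117). PSME2, PSME3 and PSME4 stayed lower under scaling to totals alone.

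The assembly chaperones moved little. Their median log2 fold change with SGA360 was −0.06. Called lower were 2 of 7 genes, near the 31.4% of all genes, and called higher were none, beside 31.4%. The 2 were PSMG1, which pairs with PSMG2 to template the alpha ring (−0.31 ± 0.048, adjusted p = 6.97e-08), and PSMG3 (−0.18 ± 0.066, adjusted p = 0.0175; 0.0829 without lovastatin replicate 3, 0.0569 in DESeq2 and 0.420 under scaling to totals alone). PSMG2 itself stood at −0.06 (adjusted p = 0.181). The 3 cap chaperones did not pass: PSMD5 at 0.07, PSMD9 at 0.00 and PSMD10 at −0.09. Under scaling to totals alone the class median became 0.06, with PSMD5, PSMD9 and PSMG4 called higher and PSMG1 lower. Whether the classes differ from each other was not tested beyond these counts and medians.

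**Figure D2:**
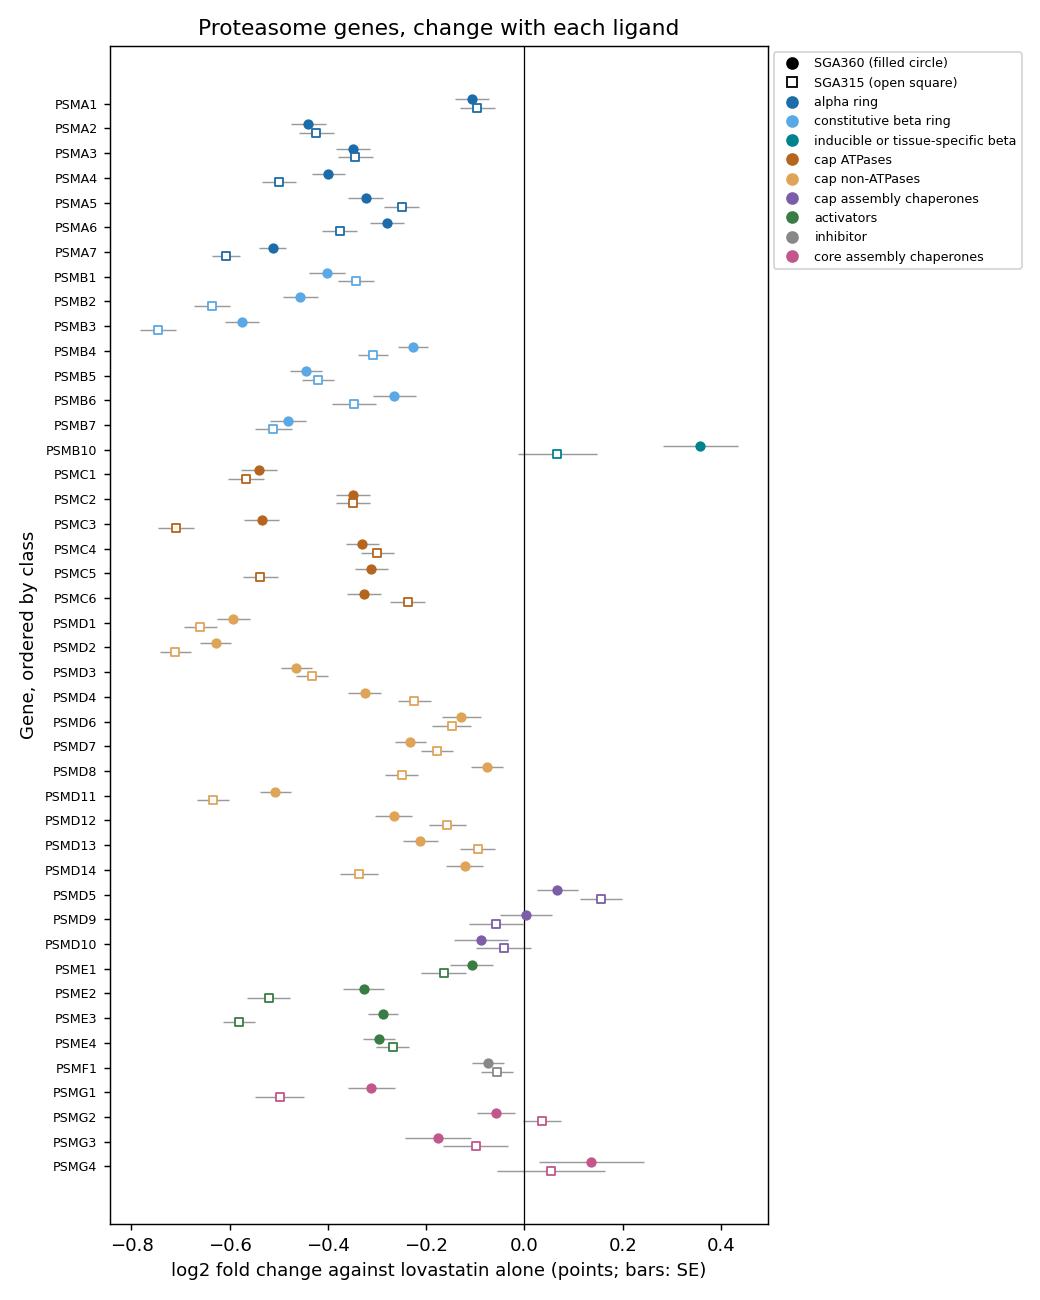
Log2 fold change of each of the 44 members against lovastatin alone (filled circles: SGA360; open squares: SGA315; bars: SE), ordered and coloured by class. Core and cap genes other than PSMB10 all lie below 0 for both ligands, while most assembly chaperones lie near 0.

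With SGA315 the same classes were lower. Of the 44 members, 36 were lower, 1 was higher and 7 did not pass, beside 33.2% lower and 36% higher over all genes tested. The median was −0.34 against 0.04 for all genes, a distance of 0.37. Under scaling to totals alone the medians were −0.22 and 0.16, with 30 members lower and 3 higher. That scaling again shifts all genes nearly alike, so the distance could hardly change. At least 1.2-fold lower were 26 members, against 24% of all genes. In 35 members every SGA315 library lay below every control library in CPM, as in 33.8% of all genes. The medians were −0.38 for the core, −0.34 for the cap, −0.27 for the activator class and −0.04 for the assembly chaperones. Without the inhibitor PSMF1, the 4 activators had a median of −0.39. The 31 core and cap genes other than PSMB10 were lower with each ligand, and under scaling to totals alone 13 core and 13 cap genes were lower with SGA315. Since both ligands are set against the same control libraries, these lists are not independent of each other.

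PSMB3 fell furthest with SGA315. It measured 93.5, 99.8 and 88.3 CPM, all below its 157 to 158 CPM with lovastatin alone, at a log2 fold change of −0.75 ± 0.036 (adjusted p = 9.64e-29). PSMD2 followed, at 144, 157 and 145 CPM (−0.71 ± 0.032, adjusted p = 1.55e-30), and so did the ATPase PSMC3 (−0.71 ± 0.037, adjusted p = 4.32e-27). Neither gene overlapped its control libraries. PSMA7 (−0.61), PSMB2 (−0.64), PSMD1 (−0.66) and PSMD11 (−0.63) also stood below −0.6. PSMD13, a cap subunit, changed least among the called core and cap genes. Its libraries overlapped the controls, and its −0.10 (adjusted p = 0.0167) was not called without lovastatin replicate 3 (adjusted p = 0.0837) and turned to 0.03 under scaling to totals alone. PSMA1 likewise stood at −0.10 (adjusted p = 0.0145) and turned to 0.03 under that scaling.

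PSMD5, the cap chaperone, was the 1 member called higher with SGA315. It measured 66.2, 64.3 and 64.1 CPM with lovastatin alone, 67.2, 66.6 and 70.5 CPM with SGA360, and 72.2, 70.4 and 74.4 CPM with SGA315. The SGA315 libraries lay above every control library, at a log2 fold change of 0.16 ± 0.042 (adjusted p = 8.65e-04). PSMG1 fell by 0.50 on the log2 scale, and the remaining 5 assembly genes did not pass, from −0.10 (PSMG3) to 0.05 (PSMG4), though PSMD9 was called at −0.14 without SGA315 replicate 2. Under scaling to totals alone the class median with SGA315 became 0.08, with PSMD5 and PSMG2 called higher. PSME1 was called lower with SGA315 except under scaling to totals alone (−0.04, adjusted p = 0.399). PSMF1 did not pass at −0.06 (adjusted p = 0.126), but was called under RLE scaling (adjusted p = 0.0385) and without SGA315 replicate 1 (adjusted p = 0.0201).

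Levels were also summed over classes. The 44 members together held 5940 ± 24.01 CPM with lovastatin alone (SD, n = 3), 4696 ± 21.7 CPM with SGA360 and 4560 ± 50.5 CPM with SGA315. That is 79.1% and 76.8% of the level with lovastatin alone. The core stood at 76.5% and 73.6%, the cap at 77.6% and 76.1%, and the activator class at 85.7% and 80.2%. Within the activator class the 4 activators stood at 82.8% and 75.3%, and the inhibitor PSMF1 at 94.8% and 96.1%. The assembly class stood at 95.5% and 97.1%. Within it the 3 cap chaperones stood at 101% and 103%, and the 4 core chaperones at 91.5% and 92.5%. These sums weight abundant genes most and carry no test.

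**Figure D3:**
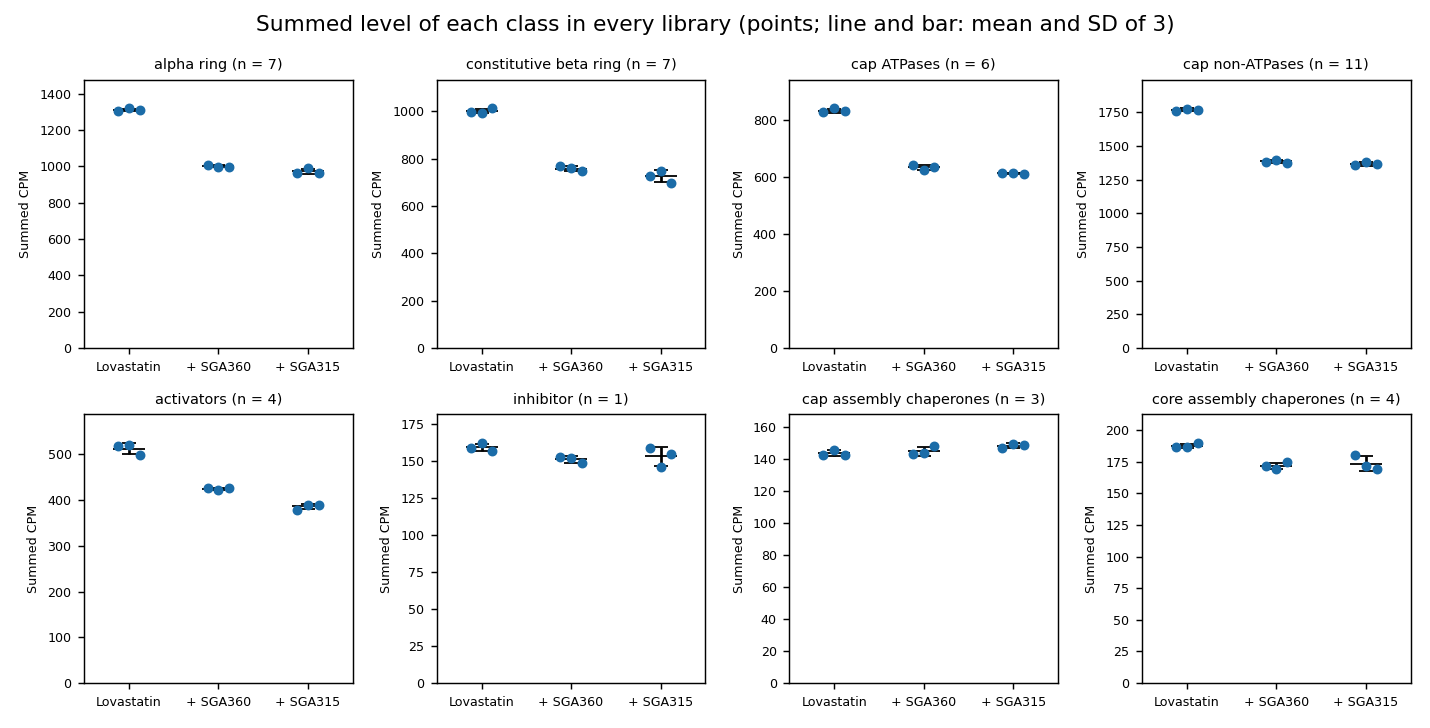
Summed CPM of the genes of each class in every library (points; line and bar: mean and SD of 3), with the number of genes in each title and axes from 0. The core rings, cap subunits and activators separate from lovastatin alone with both ligands. The cap assembly chaperones stay at 101% and 103% of their control level, and the core assembly chaperones stand at 91.5% and 92.5%.

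PSMB10 was the 1 core gene that did not fall. It replaces PSMB7 as the trypsin-like site when interferon remodels the core. PSMB10 measured 17.2, 18.6 and 19.1 CPM with lovastatin alone, 22.4, 25.7 and 21.8 CPM with SGA360, and 19.9, 20.8 and 16.5 CPM with SGA315. The SGA360 libraries lay above every other library, whereas those with SGA315 overlapped the controls. Its log2 fold change was 0.36 ± 0.076 with SGA360 (adjusted p = 3.64e-05) and 0.07 ± 0.080 with SGA315 (adjusted p = 0.463). Under scaling to totals alone the SGA315 value became 0.19 and was called (adjusted p = 0.0325), and without SGA315 replicate 2 it was −0.01. The difference between the ligands, 0.29 ± 0.076, passed the test (adjusted p = 0.00110) and did so under all 16 alternatives run.

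PSMB7 moved the other way. It measured 124, 122 and 129 CPM with lovastatin alone, 92.9, 88.9 and 86.7 CPM with SGA360 and 88.6, 90.5 and 84.1 CPM with SGA315. Both treated groups lay below every control library. Per kilobase, PSMB10 amounted to 11.8% ± 0.570 of PSMB7 with lovastatin alone, 21.0% ± 2.02 with SGA360 and 17.5% ± 1.48 with SGA315 (SD, n = 3). The share was higher in all 6 libraries with a ligand than in any control library. With SGA315, PSMB7 fell by 0.51 on the log2 scale, and PSMB10 itself did not pass. PSMB7 shares its place with the non-coding gene LOC100129034, whose entry holds 73.8% as many counts, and strand use in the counting is not known.

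The other inducible catalytic subunits could not be read. PSMB8 and PSMB9 were listed at 0 in all 9 libraries, and so were CSNK2B, DDX39B and PFDN6, other genes of the same stretch of chromosome 6. RPS18, a ribosomal protein gene of that region, had 5 counts in all. It was 1 of 6 with under 15 counts among 82 ribosomal protein genes, whose median was 89703. Of the 40 protein-coding genes nearest PSMB9, 34 had under 15 counts, whereas 25.6% of all 19110 protein-coding genes did, and around the other members 1 to 20 did, with a median of 7, among the 20 to 40 genes nearest each. The peptide transporter genes TAP1 and TAP2 and the loading factor TAPBP, from the same region, had 7, 21 and 17 counts. The zeros of PSMB8 and PSMB9 are therefore not taken as absence of expression, and their cause was not tested.

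**Figure D4:**
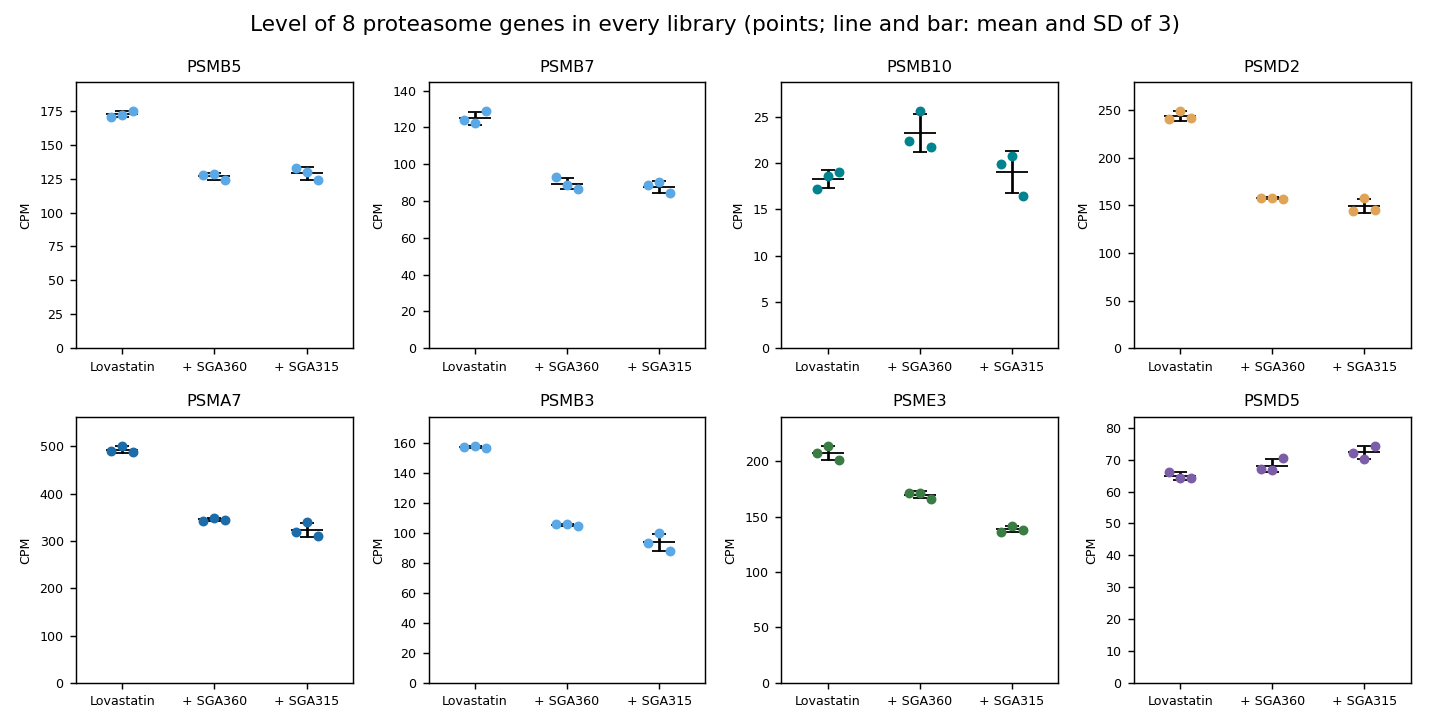
CPM of 8 proteasome genes in every library (points; line and bar: mean and SD of 3), axes from 0. PSMB5, PSMB7, PSMD2, PSMA7, PSMB3 and PSME3 fall with both ligands, PSMB10 is highest with SGA360 and PSMD5 is highest with SGA315.

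SGA360 was set directly against SGA315 at the same dose and time. It left 16 members higher and 5 lower than SGA315, and 23 did not pass, beside 21.8% higher and 20.9% lower over all genes. The members' median was 0.03 against −0.01 for all genes, and PSME3 and PSMB10 were the 2 members past 1.2-fold, both higher with SGA360, as were 10.1% of all genes. PSME3 differed most. Its level was 208, 214 and 201 CPM with lovastatin alone, 172, 171 and 166 CPM with SGA360, and 136, 142 and 138 CPM with SGA315. The 3 groups formed separate steps, and the ligands differed by 0.29 ± 0.033 on the log2 scale (adjusted p = 1.38e-11). The activator PSME2 (0.19, adjusted p = 2.80e-04), the ATPase PSMC5 (0.23, adjusted p = 2.55e-07), the deubiquitinase subunit PSMD14 (0.21, adjusted p = 5.09e-06) and the chaperone PSMG1 (0.19, adjusted p = 0.00234) were also higher with SGA360, as they had fallen further with SGA315. In the core, 7 of 15 genes were higher with SGA360 and none lower, among them PSMB2 (0.18) and PSMB3 (0.17). The core calls of PSMA4, PSMA6 and PSMB4 were lost without SGA360 replicate 1 (adjusted p = 0.0593, 0.0772 and 0.084). In the cap, the call of PSMD2 as higher (0.08, adjusted p = 0.0390) was lost in 8 of the 16 alternatives.

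The 5 members lower with SGA360 than with SGA315 differed by small amounts, from −0.12 (PSMD13) to −0.09 (PSMC6 and PSMG2), with PSMD12 at −0.11 and PSMD4, a ubiquitin receptor, at −0.10. None of the 5 was called in DESeq2, and the count was 1 without SGA360 replicate 1, 2 without SGA360 replicate 2 and 3 without SGA315 replicate 3. Of the 21 calls between the ligands, 12 held in every alternative. Some differences that did not pass had narrow intervals, which rest only on the spread between these libraries. PSMB5 differed by −0.02 (95% interval −0.09 to 0.04), PSMB7 by 0.03 (−0.05 to 0.11) and PSMC2 by −0.00 (−0.07 to 0.07) on the log2 scale. The widest interval among the members was that of PSMG4, the least abundant of them (−0.13 to 0.29). The labels do not describe how the ligands differ in structure, and no structural comparison is made.

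**Figure D5:**
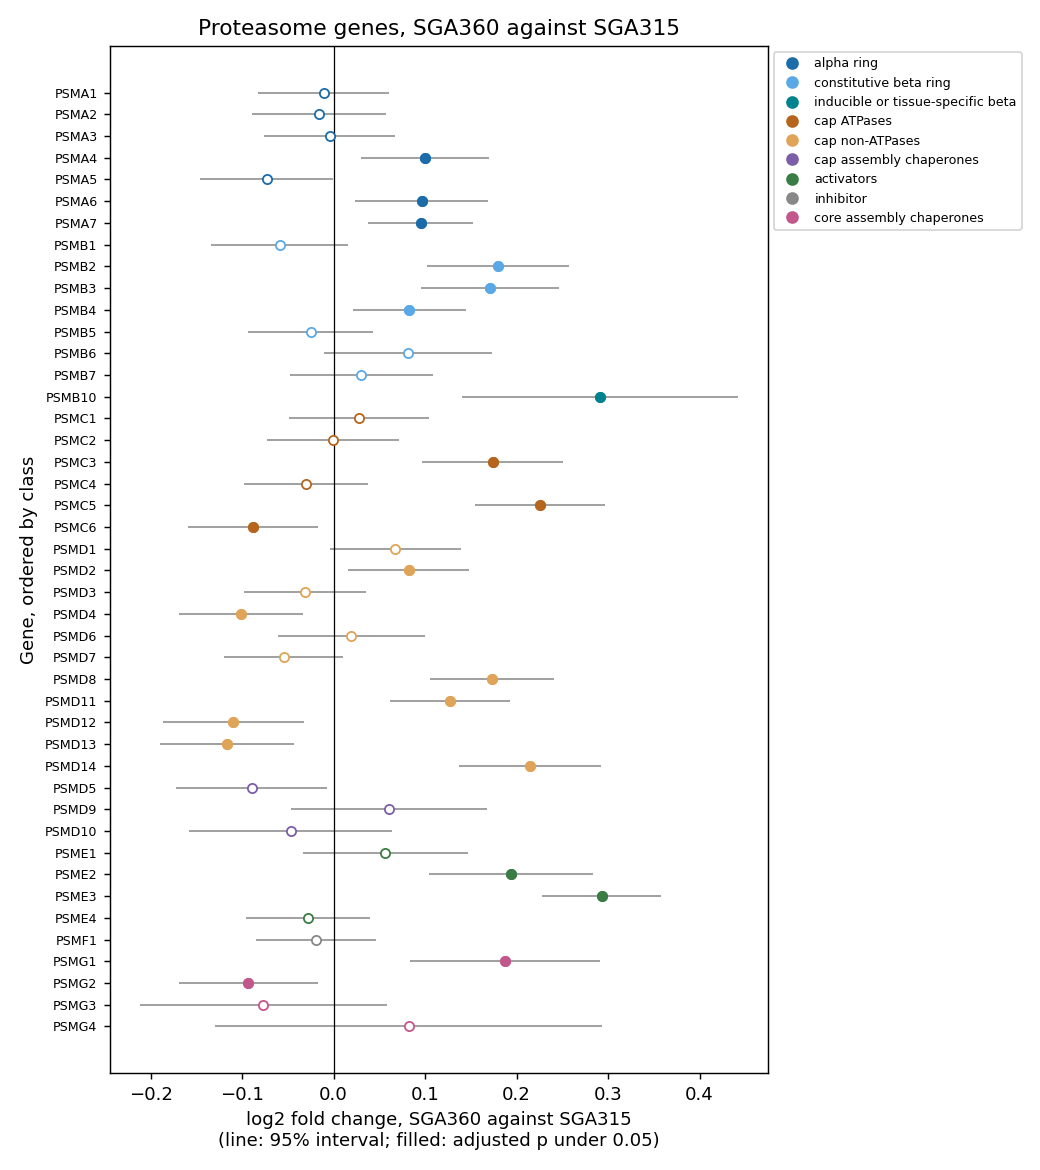
Log2 fold change of SGA360 against SGA315 for the 44 members (points; lines: 95% interval; filled: adjusted p under 0.05), ordered and coloured by class. PSME3 and PSMB10 lie furthest to the right at 0.29, and the 5 called lower lie between −0.12 and −0.09.

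The DNA before the genes' starts was compared because most core and cap genes moved together. RefSeq promoter sequences of GRCh38.p14 were matched for 38 of the 44 members, and the 250 bases before each start were searched on both strands. PSMB3 and PSMD2 are shown as the largest falls with SGA315 and SGA360, PSMD3 as a cap gene that fell by 0.46 and 0.43 on the log2 scale with SGA360 and SGA315 and holds both motifs, and PSMB10 as the core gene that did not fall. Their windows are chr17:38752491-38752740 for PSMB3, chr17:39980557-39980806 for PSMD3 and chr3:184298991-184299240 for PSMD2, all on the plus strand, and chr16:67936851-67937100 for PSMB10 on the minus strand, each written 5′ to 3′ along the gene. Capitals mark CCAAT and TGANNNNGC on either strand; CCAAT is the motif bound by NF-Y, and TGANNNNGC is the loose form of the antioxidant response element to which NFE2L1 and NFE2L2 bind with small MAF partners.
PSMB3: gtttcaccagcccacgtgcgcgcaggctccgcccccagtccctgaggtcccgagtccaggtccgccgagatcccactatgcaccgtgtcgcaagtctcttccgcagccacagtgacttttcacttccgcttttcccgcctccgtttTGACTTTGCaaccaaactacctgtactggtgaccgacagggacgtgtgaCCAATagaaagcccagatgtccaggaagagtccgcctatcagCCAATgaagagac
PSMD3: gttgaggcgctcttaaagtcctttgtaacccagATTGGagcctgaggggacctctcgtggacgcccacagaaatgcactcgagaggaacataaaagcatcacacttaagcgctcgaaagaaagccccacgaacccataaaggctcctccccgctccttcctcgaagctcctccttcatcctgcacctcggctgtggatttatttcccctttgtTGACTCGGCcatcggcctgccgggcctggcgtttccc
PSMD2: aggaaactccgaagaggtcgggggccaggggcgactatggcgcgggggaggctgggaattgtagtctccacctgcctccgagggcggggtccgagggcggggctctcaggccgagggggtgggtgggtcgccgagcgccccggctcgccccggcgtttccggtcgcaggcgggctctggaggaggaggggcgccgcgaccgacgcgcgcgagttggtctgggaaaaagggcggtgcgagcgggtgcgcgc
PSMB10: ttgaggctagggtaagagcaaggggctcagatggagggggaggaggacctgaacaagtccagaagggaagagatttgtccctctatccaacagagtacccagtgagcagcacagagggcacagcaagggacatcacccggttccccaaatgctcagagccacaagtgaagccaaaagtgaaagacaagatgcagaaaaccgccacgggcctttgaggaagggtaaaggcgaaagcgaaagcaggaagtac

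PSMB3 holds CCAAT at 2 places and TGANNNNGC at 1, PSMD3 holds each at 1 place, and PSMD2 and PSMB10 hold neither in these windows. Among the 38 members 16 (42.1%) held CCAAT, against 34.5% of 15843 protein-coding promoters, and 19 (50%) held TGANNNNGC, against 35.6%. The narrower TGACNNNGC, each match of which also matches TGANNNNGC, was in 10 (26.3%), against 11.5%. The stricter element TGACTCAGC, which contains a match to TGANNNNGC, was in 0 of the members' windows and in 0.398% of all. The median log2 fold change with SGA315 was −0.38 for the 16 members with CCAAT and −0.25 for the 22 without, and with SGA360 it was −0.32 and −0.27. For TGANNNNGC the medians were −0.31 with the motif and −0.35 without for SGA315, and −0.30 and −0.31 for SGA360. For TGACNNNGC they were −0.22 with and −0.34 without for SGA315, and −0.28 and −0.32 for SGA360. A match is a description of letters in this window. Among members with large falls with SGA315, PSMD2 (−0.71), PSMD1 (−0.66), PSMB2 (−0.64) and PSMD11 (−0.63) held no match to CCAAT or TGANNNNGC there. PSMB3 (−0.75) and PSMC3 (−0.71) held both, and PSMA7 had no matched promoter. Any part of these motifs in the changes was not tested.

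Genes that work beside the proteasome were counted in 4 lists. Of 10 partners outside the naming rule, 5 were lower and 3 higher with each ligand, beside 31.4% lower and 31.4% higher over all genes with SGA360 and 33.2% and 36% with SGA315. Calls higher were thus near the share of all genes. POMP, the maturation factor of the core, fell by 0.46 with SGA360 and 0.45 with SGA315 on the log2 scale, beside medians of −0.06 and −0.04 for the 7 assembly members. SEM1, a small cap subunit, fell by 0.58 and 0.49, and ADRM1, a ubiquitin receptor of the cap, by 0.47 and 0.60. PAAF1 rose by 0.36 (adjusted p = 2.02e-08) and 0.29 (adjusted p = 4.05e-06), without overlap with the control libraries. It was not followed under the alternatives. ECPAS, an adaptor of the assembled particle, rose by 0.10 and 0.33. Its call with SGA360 was lost in DESeq2 (adjusted p = 0.0547) and without lovastatin replicate 1 (0.0848), lovastatin replicate 2 (0.0657) or SGA360 replicate 1 (0.0941). TXNL1, a thioredoxin-related protein bound to the cap, rose by 0.28 with SGA315 and did not pass with SGA360 (0.09; called at 0.12 without SGA360 replicate 3 and at 0.21 under scaling to totals alone).

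Of 8 genes that control proteasome transcription, 2 were higher and 5 lower with SGA360, and 3 higher and 4 lower with SGA315. Over all genes 31.4% were higher and 31.4% lower with SGA360, and 36% and 33.2% with SGA315, so the counts of genes higher were near the background. NFE2L1 measured 515, 513 and 532 CPM with lovastatin alone, 572, 588 and 572 CPM with SGA360, and 589.5, 583 and 599.5 CPM with SGA315. It lay above every control library with both ligands (0.15 ± 0.026, adjusted p = 1.17e-06, and 0.18 ± 0.026, adjusted p = 8.70e-09), while the 31 core and cap genes other than PSMB10 were called lower. NGLY1, the glycanase that processes the NFE2L1 protein, rose by 0.74 and 0.64, and NFE2L2 fell by 0.47 and 0.29 on the log2 scale. KEAP1 fell by 0.58 and 0.44. The small MAF gene MAFF fell by 0.79 and 0.74, but the small MAF gene MAFG did not move alike with both ligands. MAFG was at −0.16 with SGA360 (adjusted p = 9.65e-04) and at 0.12 with SGA315 (adjusted p = 0.0101). Its SGA360 call was lost under scaling to totals alone (adjusted p = 0.368). Its SGA315 call was lost in DESeq2 (adjusted p = 0.0915) and without lovastatin replicate 2 (0.0841) or SGA315 replicate 1 (0.0525) or 2 (0.0823). Protein amounts and processing were not measured.

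Of 15 genes of ubiquitin supply and delivery, 7 were lower and 4 higher with SGA360, and 9 lower and 3 higher with SGA315, where the shares of all genes were 31.4% and 31.4% for SGA360 and 33.2% and 36% for SGA315. UBA1, the main ubiquitin-activating enzyme, fell by 0.49 and 0.59 on the log2 scale, and VCP, the segregase that hands substrates on, by 0.53 and 0.48. RPS27A and UBA6 were called higher with both ligands and were not followed under the alternatives. RAD23B was higher with SGA360 (0.10, adjusted p = 6.16e-04) and lower with SGA315 (−0.12, adjusted p = 6.85e-05). Its SGA315 call was lost under scaling to totals alone (adjusted p = 0.936). Of 9 interferon and antigen-processing genes 6 could be tested, and 3 were higher and 2 lower with SGA360, 2 and 2 with SGA315. Over all genes 31.4% were higher and 31.4% lower with SGA360, and 36% and 33.2% with SGA315. The SGA315 counts were thus near the shares of all genes. NLRC5, an activator of MHC class I genes known to raise PSMB9 as well, rose by 1.79 and 1.72 on the log2 scale. Its level with lovastatin alone was low, at 0.389 to 0.471 CPM. It had 7, 6 and 6 counts with lovastatin alone, 21, 31 and 19 with SGA360, and 20, 24 and 18 with SGA315. The control counts lay below the minimum count of the filter, which NLRC5 passed through the libraries with a ligand. The size of its rise is therefore uncertain (SE 0.37 and 0.38). By contrast B2M, the light chain of MHC class I, fell by 0.41 and 0.43 on the log2 scale.

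Some members overlap other genes in the annotation. For 8 of the 44, an overlapping gene has a total count above 10% of the member's own total. The highest ratios were 104% for PMPCB against PSMC2, 53.7% for FTSJ3 against PSMC5 and 36.4% for CEP76 against PSMG2, besides PSMB7 above. How many reads, if any, were counted for both genes is not known, and these members' values are uncertain for that reason. The annotation names pseudogenes for 21 members, most for PSMC1 (13) and PSME2 (6), and reads of near-identical copies could have been lost or split in the authors' counting. The deposited counts held 0 for the pseudogenes of PSMC1 and of PSME2. A sum of 0 arises from entries at 0 and also where a pseudogene has no entry.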

How the data were processed

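Poly(A) RNA from 9 Caco-2 libraries, 3 per treatment, was analysed, with group and replicate number taken from the labels. The authors deposited raw counts of reads as whole numbers, 1 column per library and 1 line per RefSeq transcript, per the file headers. The submitters' processing notes name TopHat2 2.0.13, HTSeq 0.5.4p3 and the build hg19. Which annotation release and strand setting were used is not given in the sources used here. Transcripts of a gene repeat its reads, so the entry with the highest total stood for each gene: 65325 entries gave 27671 genes, after 65 genes with counts identical to another were dropped. Entries without a gene name (414, with 0.224% of all counts) were left out. Names and gene neighbours came from RefSeq GRCh38.p14 and GENCODE 29.

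The quasi-likelihood F test of edgeR 4.0.16 (R 4.3.3) was applied with TMM scaling and all 9 libraries in 1 fit, 1 coefficient for each group. The filter filterByExpr kept genes by a minimum count of 10 and a minimum total of 15. Benjamini-Hochberg adjustment ran over 14680 genes, and calls were made at an adjusted p under 0.05. The script was tested on simulated data. Levels are CPM on TMM-scaled library sizes, errors of log2 fold changes are SE, and floors of 3 counts cover counting error only. The biological coefficient of variation was 2.16%, and same-group libraries differed by more than sampling noise. The 16 alternatives were RLE scaling, scaling to totals, no filter, a replicate block, the lowest accession per gene, the compared groups only, DESeq2 1.42.0 and leaving out each library.

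Every member is named or counted, with, of each of 4 companion lists, up to 3 tested genes of smallest p per comparison, and POMP, SEM1, ADRM1, NFE2L1 and TAP1 by name. Of the genes so chosen, 1 is not reported here. Genes of the region around PSMB9, and PAAF1, RPS27A and UBA6, were chosen after their values were seen. Members and lists were chosen with earlier results of these data known.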

Additional observations from a re-analysis of the deposited data

How the results depend on the processing

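Without a batch named in the labels, the limits are the size of the changes and the scaling. Most members' changes are below 1.5-fold, and changes near 0 turned sign under some of the 16 alternatives. The cause was not tested. Scaling to totals alone gave 4 members higher with SGA360 and 3 with SGA315, and medians of −0.20 and −0.22. For SGA315 the median was −0.36 with RLE scaling and −0.36 in DESeq2. Members lower with SGA360 than with SGA315 numbered 3 with RLE scaling, 3 without the filter on low counts and 0 in DESeq2. Leaving out 1 library gave 1 to 6 of these, and medians of −0.33 to −0.30 for SGA360 and −0.36 to −0.32 for SGA315. The count was 1 without SGA360 replicate 1, 2 without SGA360 replicate 2 and 3 without SGA315 replicate 3. Under all alternatives run, 31 members stayed called lower with SGA360 and 30 with SGA315.

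Replicate numbers did not pair the libraries: correlations of deviations between same-numbered libraries were −0.0242 to 0.0458. With a replicate block the counts were again 38 lower and 1 higher for SGA360, 36 and 1 for SGA315, and 16 higher and 5 lower between the ligands, with medians of −0.31, −0.34 and 0.03. Under the block PSMD9 with SGA360 was −0.0012.

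Scaling to totals alone turned the following log2 fold changes. For SGA360 they became 0.0077 for PSMA1, 0.025 for PSMD10, 0.038 for PSMD8, 0.0069 for PSME1, 0.040 for PSMF1 and 0.057 for PSMG2. For SGA315 they became 0.025 for PSMA1, 0.079 for PSMD10, 0.026 for PSMD13, 0.064 for PSMD9, 0.066 for PSMF1 and 0.022 for PSMG3. PSMD9 with SGA360 was −0.0076 with RLE scaling, −0.011 without the filter, −0.011 with the lowest accession and −0.0091 in DESeq2. Between the ligands PSMA3 became 0.0052, 0.00093 and 0.0047, and PSMC2 0.0086, 0.0043 and 0.0079, with RLE scaling, without the filter and in DESeq2. POMP became 0.00040 with RLE scaling and 0.0019 in DESeq2.

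Leaving out 1 library turned these, given as ranges over the libraries left out. With SGA360 it was PSMD9 −0.047 to 0.039. With SGA315 they were PSMB10 −0.011 to 0.16, PSMG2 −0.031 to 0.063, PSMG4 −0.068 to 0.13, ERAP2 −0.12 to 0.13. Between the ligands they were PSMA1 −0.023 to 0.0051, PSMA2 −0.038 to 0.0063, PSMA3 −0.042 to 0.025, PSMC2 −0.025 to 0.018, PSMD6 −0.013 to 0.036, PSMF1 −0.052 to 0.0079, POMP −0.039 to 0.015, NLRC5 −0.088 to 0.20, MAFF −0.15 to 0.0018.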
